A study of Homo sapiens with 16 samples.

Results

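The AP-1 subunit genes FOS, FOSB, FOSL1, FOSL2, JUN, JUNB, JUND and ATF3 were followed together with EGR1 in MCF10A, a line of human breast epithelial cells that became immortal in culture and forms no tumours. These 9 genes were selected by symbol from the 26475 genes of a bulk RNA-seq count table with 16 libraries. The choice was made with earlier results of these data known. All 9 had counts in every library and passed the filter on low counts in every comparison. EGR1 was the member that stood apart. Its transcript was 3.48-fold higher with collagen and the DDR1 inhibitor than with collagen alone, while none of the 8 AP-1 genes passed the same test in edgeR. FOSL1 passed in that comparison with DESeq2, and both results depended on the fit, as given with each gene.

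The libraries formed 4 groups of 4. Control cells received DMSO and media changes but no collagen. Cells of the collagen group also received DMSO, and collagen at 0.05 mg/mL for 24 h. The DDR1i group received the same collagen and, for 48 h, DDR1-IN-1 at 2 µM, a small molecule inhibitor of the collagen receptor kinase DDR1. The RUNXi group received the same collagen and, for 48 h, AI-10-104 at 5 µM, which blocks the binding of RUNX transcription factors to their partner CBFβ. All groups were MCF10A without a genetic change, in a growth medium with EGF, insulin, hydrocortisone, cholera toxin and horse serum. Nothing in the labels tells whether replicates were separate cultures, so the p-values measure the spread between these libraries, which may be technical. Collagen replicate 3, a library that the study left out of its own testing, is shown in the levels. It was left out of the tests between groups and kept in the correlations between genes.

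Total counts per library ranged from 12184619 to 44332378. All 8 epithelial markers examined had counts in every library. Of 4 fibroblast markers 3 had counts, with a summed level of 5.42 to 32.9 CPM (counts scaled to library size by the TMM method), and DCN was present in every library while COL3A1 was at 0 in all 16. All 3 immune markers had counts, with a sum of 8.53 to 28.7 CPM, of which CD68 was present in every library and PTPRC and CD3E had 1 and 2 counts in total. Endothelial markers summed to at most 2.40 CPM with CDH5 at 0, and markers of hormone-responsive luminal cells to at most 1.56 CPM with PGR at 0.

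AP-1 is a dimer of basic leucine zipper proteins. JUN, JUNB and JUND pair with one another or with FOS, FOSB, FOSL1 and FOSL2, and the dimers bind the site TGANTCA. ATF3 is a stress-responsive relative that pairs with JUN proteins and often acts as a repressor. EGR1 is a zinc finger factor that binds GC-rich sites and is not part of AP-1. FOS, FOSB, JUNB, ATF3 and EGR1 are immediate-early genes, which are transcribed within minutes of a growth factor, stress or adhesion signal and whose mRNA is short-lived. In many of them the signal passes through ERK kinases to SRF and its ternary complex partners, which bind CArG boxes and neighbouring ETS sites. FOSL1 is induced later and more durably through ERK and AP-1 itself.

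The promoter of EGR1 is shown because EGR1 had the largest called fold change of the set, and that of FOS, the other classical target of serum, is set beside it. Windows of 250 bases before to 50 after the transcription start came from RefSeq (GRCh38.p14), where 8 of the 9 members matched, with 9 windows, as ATF3 has more than one start. FOSL1 was not matched. Capitals mark matches to a CArG box, to the EGR site GCGNGGGCG or to the TATA sequence TATAAA on either strand.
EGR1, chr5:138465229-138465528, plus strand: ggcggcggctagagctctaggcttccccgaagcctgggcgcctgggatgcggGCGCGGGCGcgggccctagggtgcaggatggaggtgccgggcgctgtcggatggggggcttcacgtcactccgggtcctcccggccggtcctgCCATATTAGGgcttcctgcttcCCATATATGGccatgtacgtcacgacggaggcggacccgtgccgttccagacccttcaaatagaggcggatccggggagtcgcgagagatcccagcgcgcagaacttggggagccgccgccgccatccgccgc
FOS, chr14:75278578-75278877, plus strand: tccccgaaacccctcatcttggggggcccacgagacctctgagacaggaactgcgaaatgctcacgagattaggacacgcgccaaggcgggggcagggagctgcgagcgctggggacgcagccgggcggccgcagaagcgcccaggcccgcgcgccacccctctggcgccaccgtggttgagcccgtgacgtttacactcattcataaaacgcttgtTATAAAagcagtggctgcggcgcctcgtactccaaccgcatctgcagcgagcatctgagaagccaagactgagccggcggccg
The EGR1 window held 2 CArG boxes, CCATATTAGG and CCATATATGG, which begin 105 and 83 bases before the start, and an EGR site, GCGCGGGCG, which begins 198 bases before it. CArG boxes occurred in 1.29% of the 35116 RefSeq windows of this length and in no other member's window. Sequence more than 250 bases before the start was not searched, so a CArG box farther upstream, in FOS or another member, would be missed. The EGR site occurred in 9.43% of windows. The FOS window held TATAAA at 33 bases before the start, as did FOSB at 30 and JUNB at 31 bases before theirs and 1 of the ATF3 windows at 230 bases before its start, a motif present in 11.5% of windows. Of the sites named for AP-1 or its ATF relatives, TGANTCA (7.71% of windows) was found in FOSL2 at 4 bases after the start and TGACGTCA (1.85%) in JUND at 200 bases before it. The RUNX sequence TGTGGT, present in 13.1% of windows, was in none of the members' windows. No other form of the RUNX site was searched. These matches describe letters in the windows, and binding was not measured.

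Per length of transcript, the order of the members over all 16 libraries was led by FOSL1 with 117 ± 40.3 RPKM (reads per kilobase of transcript, scaled to library size, mean and SD, n = 16). FOS followed with 106.5 ± 38.4 RPKM, which is within the spread of FOSL1. JUNB (61.8 ± 11.5 RPKM) and JUND (52.6 ± 14.0 RPKM) were next and overlapped with each other and with EGR1 (40.1 ± 31.3 RPKM). JUN had 21.1 ± 9.39 RPKM, and FOSB (17.9 ± 11.6 RPKM) and ATF3 (17.7 ± 9.27 RPKM) could not be ordered against it. FOSL2, the gene with the longest transcript of the set, was lowest at 8.43 ± 2.01 RPKM. Together the 9 genes took between 0.0603% and 0.162% of the counts of a library.

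The members differed widely in how steady they were. FOSB spanned 10.7-fold and EGR1 9.92-fold from the lowest to the highest library, against 2.57-fold for JUND and 2.00-fold for JUNB. Within groups, the pooled SD of log2 CPM was 0.961 for FOSB, 0.862 for ATF3, 0.519 for FOS and 0.506 for JUN, and 0.265 for JUNB, while the median of all tested genes was 0.306. A given fold difference is therefore harder to detect in FOSB and ATF3 than in FOSL1 (0.308) or JUNB.

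**Figure D1:**
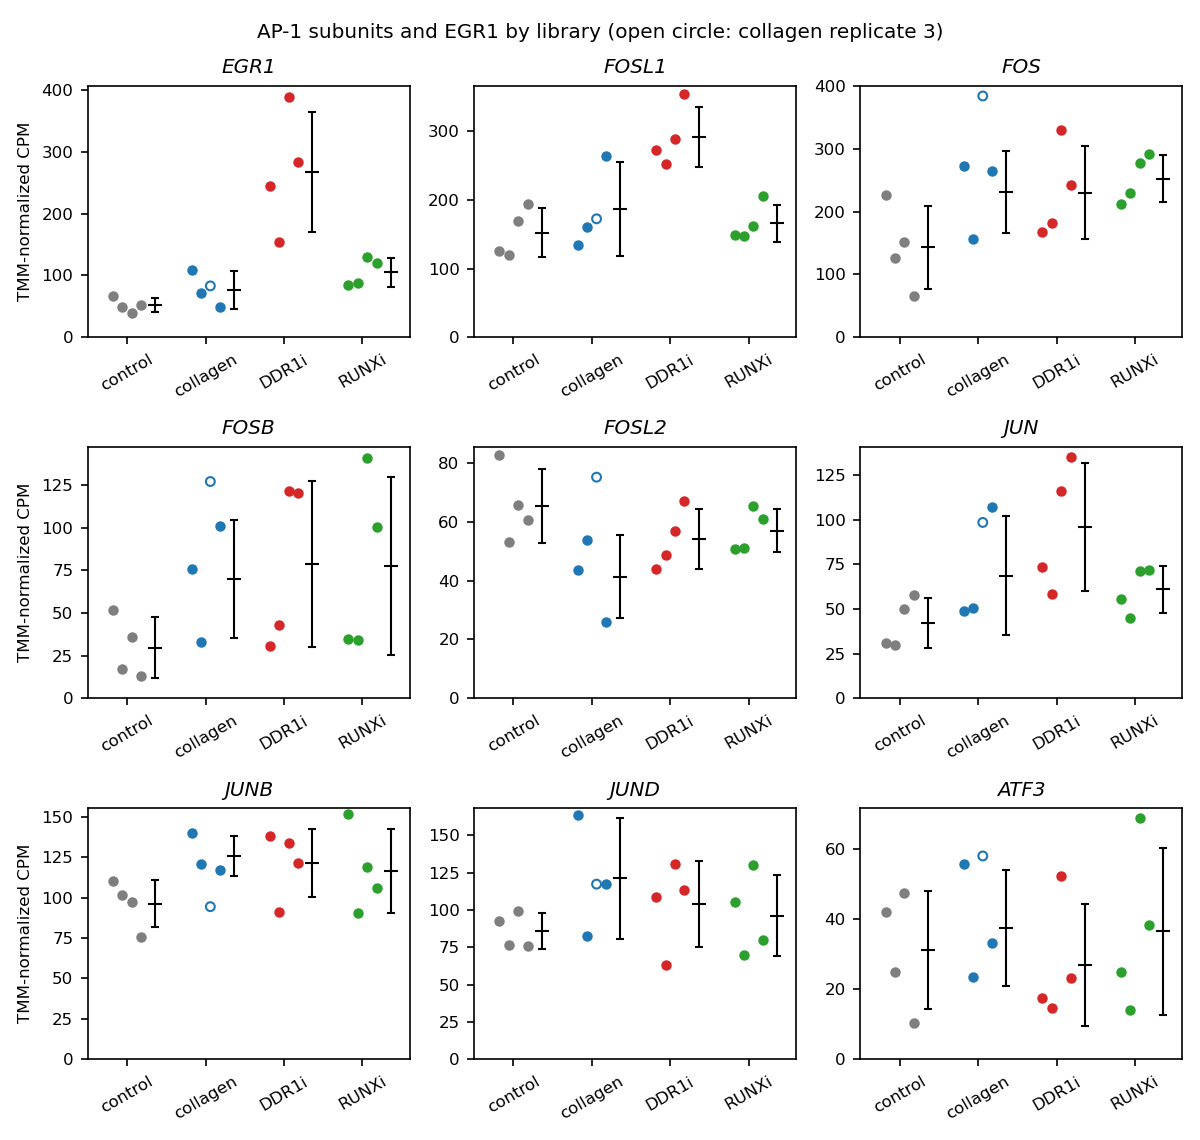
TMM-normalized CPM of the 9 members (vertical axes, linear from 0) in the 16 libraries by group, with the mean ± SD as bars and collagen replicate 3, which the bars leave out, as an open circle. The 4 DDR1i libraries of EGR1 sit between 154 and 389 CPM, above every library of the other groups, whereas the groups overlap in FOS, FOSB and ATF3.

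EGR1 lies on chromosome 5 (137801168 to 137804992 of GRCh37, plus strand, 2 exons). In control libraries 1 to 4 it was at 66.6, 48.99, 39.2 and 51.9 CPM. With collagen it was at 109, 72.4, 83.0 and 48.9 CPM in libraries 1 to 4. The collagen libraries reached above the control range in 3 of 4 cases, and the lowest of them lay inside it. With DDR1i it was at 244, 154, 389 and 283 CPM. With RUNXi it was at 83.8, 87.2, 130.35 and 119.8 CPM. Every DDR1i library was above every library of the other 3 groups, and every RUNXi library was above every control library while overlapping with collagen.

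With DDR1i, EGR1 averaged 267 ± 97.1 CPM (SD, n = 4), against 76.8 ± 30.3 CPM with collagen alone (n = 3). The log2 fold change was 1.80 (SE 0.36, 95% interval 1.00 to 2.59), with an adjusted p-value of 0.034 from the quasi-likelihood test of edgeR, adjusted by Benjamini and Hochberg's method over all genes tested. EGR1 was the 1 member of 9 called, in a comparison where 2.47% of all genes were called (1.69% higher and 0.775% lower). Its adjusted p-value passed the threshold of 0.05 only narrowly, and it was 0.0837 without collagen replicate 2, 0.149 without collagen replicate 4, 0.0541 without DDR1i replicate 3, 0.09 without DDR1i replicate 4 and 0.0506 without RUNXi replicate 4. It was 0.0671 once a per-library trend with the length of transcripts was taken out. In all 18 alternatives the log2 fold change stayed between 1.565 and 2.124, and the call was kept in 12 of them, among them the fit with collagen replicate 3 included (1.76, adjusted p = 0.0331). The summed level of the 8 epithelial markers was also lower with DDR1i, at 12832 to 17089 CPM, against 17941 to 24417 with collagen, 17764 to 22262 in the control and 20414 to 23125 with RUNXi. Keratin genes make up most of that sum. Over all libraries KRT5 had 3570374 counts, KRT14 1265871, KRT6A 1237339 and KRT17 757460. ITGA6 had 301493, EGFR 65416, CDH1 33596 and TP63 22480, so the sum tells little of these. The part of the lower sum in the EGR1 result was not tested. In bulk RNA, a change in every cell and a change in the share of cells that express a gene cannot be told apart.

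Against the control, EGR1 with DDR1i was 5.17-fold higher (log2 2.37, SE 0.25, 95% interval 1.84 to 2.90, adjusted p = 0.000652, edgeR). In this comparison 2 of the 9 members were called, EGR1 and FOSL1, where 0.212% of all genes were called (0.151% higher and 0.0605% lower). At an unadjusted p under 0.05, 4 members passed, beside 5.13% of all genes. The EGR1 call was kept when any single library was left out. Without both control replicates 2 and 3, the shallowest of that group, the log2 fold change was 2.17 with an adjusted p-value of 0.121. Set beside RUNXi directly, EGR1 was 2.54-fold above it with DDR1i (log2 1.35, SE 0.32, 95% interval 0.64 to 2.06), without overlap of the groups, but the adjusted p-value was 0.184 (unadjusted p = 0.00181, edgeR). DESeq2 gave an adjusted p-value of 0.00956 for the same difference, and edgeR 0.0334 without DDR1i replicate 2.

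Against collagen, RUNXi moved EGR1 past the threshold only with no filter on low counts (0.44, adjusted p = 0.035, edgeR). RUNXi libraries averaged 105 ± 23.3 CPM (n = 4), and the log2 difference from collagen was 0.45 (95% interval -0.31 to 1.21, adjusted p = 0.509, edgeR). The interval includes both no difference and one of more than 1 log2 unit. Against the control the log2 difference was 1.02 (fold 2.03, adjusted p = 0.121 by edgeR and 0.0285 by DESeq2), with every RUNXi library above every control library. It passed in edgeR without DDR1i replicate 2 (adjusted p = 0.0102) or DDR1i replicate 3 (0.0195), which enter that fit through the shared spread. The control group averaged 51.7 ± 11.3 CPM. Comparisons of the inhibitors with collagen use the same 3 collagen libraries, and those with the control the same 4 control libraries, so they are not independent of one another.

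**Figure D2:**
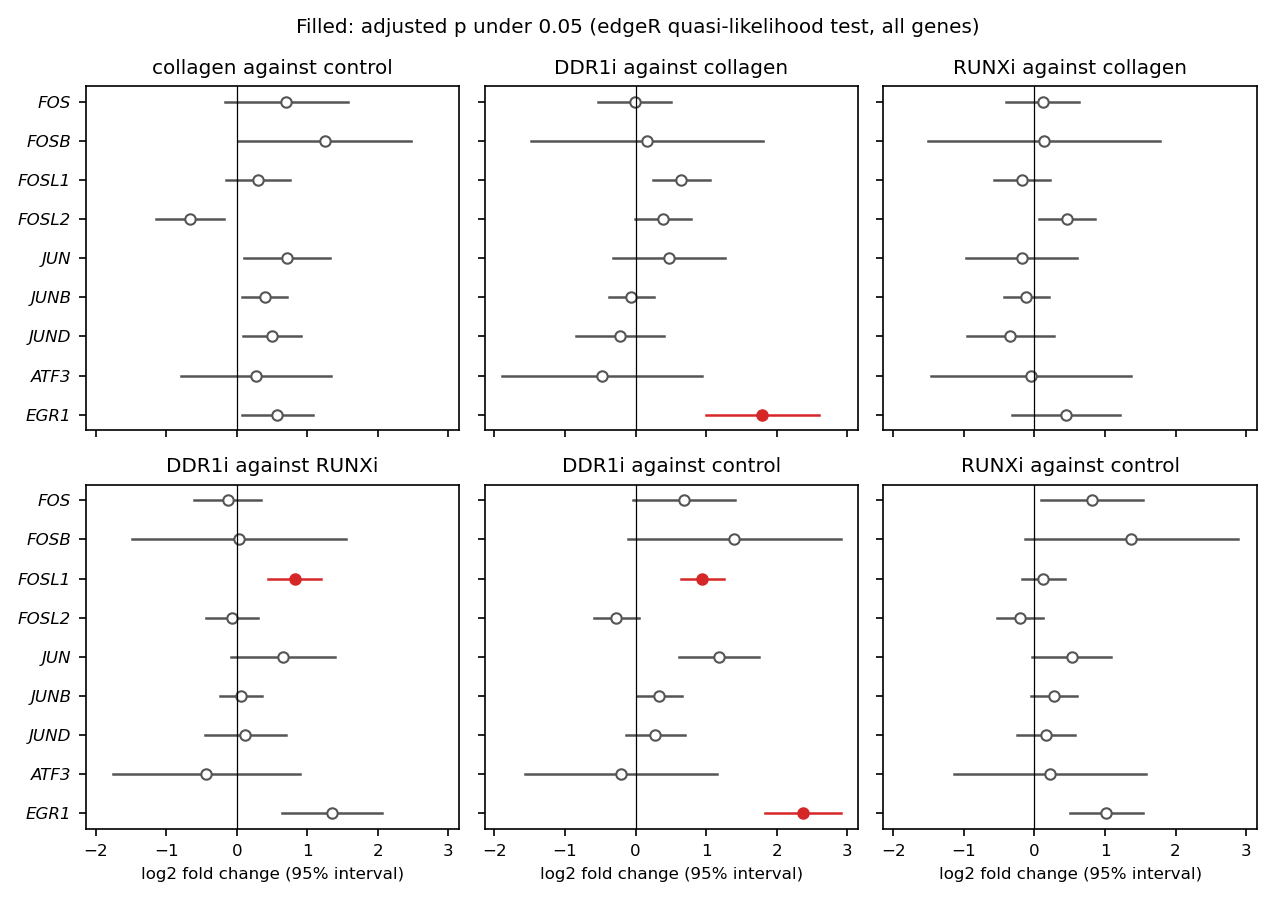
Log2 fold changes of the 9 members in the 6 comparisons (horizontal axes), as points with 95% intervals, filled where the adjusted p-value from edgeR was under 0.05. EGR1 is filled with DDR1i against collagen (1.80) and against the control (2.37), and FOSL1 with DDR1i against RUNXi (0.82) and against the control (0.95).

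FOSL1, which encodes FRA1, lies on chromosome 11 (65659520 to 65668044, minus strand, 4 exons) and was the AP-1 gene with the clearest response to DDR1i. Control libraries had 125.6, 119.95, 169 and 195 CPM, and collagen libraries 135, 161, 173 and 265 CPM in replicates 1 to 4. With DDR1i the values were 273, 253, 289 and 354 CPM. With RUNXi they were 149, 148, 162 and 206 CPM. DDR1i libraries were all above the RUNXi and control libraries, and overlapped with collagen through replicate 4 of that group.

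DDR1i exceeded RUNXi in FOSL1 by a log2 fold change of 0.82 (fold 1.76, SE 0.18, 95% interval 0.45 to 1.19, adjusted p = 0.0394, edgeR). FOSL1 was the 1 member called of 9 in this comparison, where 0.568% of all genes were called (0.347% higher and 0.221% lower). At an unadjusted p under 0.05, 2 members passed, beside 6.19% of all genes. DESeq2 called 2 members and 0.910% of the 14730 genes it gave an adjusted p-value. The call was lost when any 1 of 7 of the 8 inhibitor libraries was left out, with adjusted p-values of 0.113, 0.0741, 0.126 and 0.0982 without DDR1i replicates 1 to 4 and 0.142, 0.171 and 0.181 without RUNXi replicates 1 to 3. It was also lost with all 4 groups in the fit (adjusted p = 0.0737). The log2 fold change stayed between 0.712 and 0.942 throughout. Against the control, FOSL1 with DDR1i was 1.93-fold higher (log2 0.95, SE 0.15, adjusted p = 0.00395), a call kept without any single library and lost without control replicates 2 and 3 together (0.87, adjusted p = 0.0626) or with all 4 groups in the fit (adjusted p = 0.0664).

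Against collagen, FOSL1 with DDR1i did not pass the threshold in edgeR (log2 0.64, SE 0.19, adjusted p = 0.0806), with means of 292 ± 44.003 and 187 ± 68.9 CPM. It passed with DESeq2 (adjusted p = 0.0131), which called 10.0% of the 8535 genes it gave an adjusted p-value there. It also passed with no filter on low counts (0.000476) and with the length trend taken out (0.0225). Collagen replicate 4, at 265 CPM, lay inside the DDR1i range, and without it the log2 fold change was 0.99 with an adjusted p-value of 0.00164. RUNXi differed from collagen by -0.17 (adjusted p = 0.662).

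JUN, the archetypal partner of FOS proteins, is a single-exon gene on chromosome 1 (59242517 to 59249720, minus strand). It was at 31.2, 29.6, 50.3 and 58.05 CPM in the control and at 48.8, 50.4, 98.5 and 107 CPM with collagen. With DDR1i it was at 73.7, 58.5, 116 and 135 CPM, and with RUNXi at 55.5, 45.0, 71.2 and 72.2 CPM. In each group the libraries numbered 3 and 4 were above those numbered 1 and 2, a split that FOSL1 shares in each group and that no label explains. The DDR1i libraries were all above the control libraries, and the log2 difference was 1.18 (fold 2.27, adjusted p = 0.123, edgeR). DESeq2 gave 1.19 with an adjusted p-value of 0.000988. Without DDR1i replicate 2, the lowest of its group, edgeR gave 1.36 with an adjusted p-value of 0.0238. With replicate number as a block in the fit, which no label calls for, edgeR gave 1.17 (adjusted p = 9.49e-06). DDR1i differed from collagen by 0.47 (adjusted p = 0.566) and RUNXi from collagen by -0.18 (adjusted p = 0.84), both with overlap of the groups. Between DDR1i and RUNXi the log2 difference was 0.66 (95% interval -0.081 to 1.39, adjusted p = 0.872), again with overlap. It passed with no filter on low counts (adjusted p = 0.000386) and with the block (0.60, adjusted p = 0.0109).

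FOS lies on chromosome 14 (75745529 to 75748933, plus strand, 4 exons). The control libraries held 227, 127, 152 and 66.4 CPM, and the collagen libraries 273, 157, 384 and 265 CPM. With DDR1i the values were 167, 182, 331 and 242 CPM, and with RUNXi 212, 230.1, 277 and 291 CPM. Control replicate 4 lay far below control replicate 1, and all groups overlapped. DDR1i differed from collagen by -0.011 on the log2 scale (adjusted p = 0.99, edgeR), so that FOS and EGR1, both classical immediate-early genes, gave different values in the same libraries. The difference between the genes was not tested.

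FOSB, a FOS relative on chromosome 19 (45971253 to 45978437, plus strand, 4 exons), had 51.7, 17.3, 36.1 and 13.2 CPM in the control and 75.9, 32.9, 127 and 101 CPM with collagen. DDR1i libraries had 30.6, 42.8, 121 and 120.2 CPM, and RUNXi libraries 34.9, 34.2, 141 and 100.4 CPM. In each of the 3 groups with collagen, replicates 3 and 4 were above replicates 1 and 2. DDR1i differed from collagen by a log2 value of 0.17 (adjusted p = 0.95), which turned to -0.11 with collagen replicate 3 included.

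ATF3, on chromosome 1 (212738676 to 212794119, plus strand, 4 exons), was the other highly variable member. It was at 42.1, 25.0, 47.3 and 10.35 CPM in the control, at 55.8, 23.5, 58.0 and 33.3 CPM with collagen, at 17.4, 14.6, 52.3 and 23.3 CPM with DDR1i and at 24.9, 14.0, 68.7 and 38.2 CPM with RUNXi. All groups overlapped. Its log2 difference with DDR1i was -0.48 against collagen (adjusted p = 0.777, edgeR), a value that depended on single libraries. It was -0.10 (adjusted p = 0.969) when collagen replicate 1 was dropped and -1.02 (adjusted p = 0.494) when DDR1i replicate 3 was dropped.

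JUNB and JUND are single-exon genes on chromosome 19, JUNB at 12902300 to 12904129 on the plus strand and JUND at 18390504 to 18392432 on the minus strand. The exon of JUNB overlaps an exon of HOOK2 on the opposite strand, and as the use of strand in counting was not given in the sources used here, JUNB counts may include reads of HOOK2. JUNB averaged 96.3 ± 14.6 CPM in the control, 126 ± 12.4 with collagen (n = 3), 121 ± 21.1 with DDR1i and 117 ± 26.0 with RUNXi. JUND averaged 85.9 ± 11.9, 121 ± 40.5, 104 ± 28.7 and 96.1 ± 27.1 CPM in the same order. Neither was called in any of the 6 comparisons in edgeR without a block. JUNB differed between DDR1i and collagen by -0.058 on the log2 scale (adjusted p = 0.91) and JUND by -0.22 (adjusted p = 0.771).

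FOSL2, which encodes FRA2, lies on chromosome 2 (28615315 to 28640184, plus strand, 4 exons). It averaged 65.5 ± 12.6 CPM in the control and 41.3 ± 14.1 with collagen (n = 3), with 43.8, 53.97, 75.2 and 26.1 CPM in collagen replicates 1 to 4. Replicate 3 held the highest value of the group and replicate 4 the lowest. The log2 difference of collagen from the control was -0.66 (adjusted p = 0.227, edgeR). DDR1i and RUNXi libraries averaged 54.2 ± 10.2 and 57.03 ± 7.27 CPM, and their log2 differences from collagen were 0.39 (adjusted p = 0.295) and 0.46 (adjusted p = 0.17).

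Collagen alone was compared with the control to ask how collagen stimulation bears on these genes. No member was called in the main edgeR fit, where 0% of all genes were called. DESeq2 called none either, beside 5.76% of the 7205 genes it gave an adjusted p-value. At an unadjusted p under 0.05, 6 of the 9 members would have passed, beside 13.4% of all genes. Log2 differences were positive in 8 of 9 members, with a median of 0.50 against 0.0089 for all genes tested. They were 1.24 for FOSB (adjusted p = 0.366), 0.71 for JUN (0.293), 0.70 for FOS (0.477), 0.58 for EGR1 (0.294) and 0.50 for JUND (0.267). JUNB differed by 0.40 (adjusted p = 0.265), with every tested collagen library above every control library and collagen replicate 3, at 94.4 CPM, inside the control range. FOSL1 and ATF3 differed by 0.30 (adjusted p = 0.602) and 0.28 (adjusted p = 0.878). With 3 libraries against 4 and the spread given above, differences of this size were not resolved in the main edgeR fit. With no filter on low counts edgeR called 1 member, JUN (0.72, adjusted p = 0.0258), beside 284 of 18059 genes. With all 4 groups in the fit it called 0 members, beside 313 of 13731 genes.

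In the main edgeR fit RUNXi called no member against collagen, where 4.05% of all genes were called (2.59% higher and 1.46% lower). It called none against the control, where 0.401% were (0.242% higher and 0.159% lower). At an unadjusted p under 0.05, 1 member passed against collagen (21.1% of all genes) and 2 against the control (6.81%). DESeq2 called 0 members against collagen, beside 11.8% of the 9924 genes it gave an adjusted p-value. Against the control it called 1, EGR1, beside 1.03% of 11004 such genes. The median log2 difference of the members was -0.052 against collagen and 0.28 against the control, beside 0.0051 and 0.0017 for all genes tested. For DDR1i, the median of the members was 0.17 against collagen and 0.69 against the control, beside 0.0037 and 0.011.

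Libraries of the same group varied together in some members. Each library's log2 CPM was taken as its deviation from its group mean. All 36 pairs of members were compared over the 16 libraries, collagen replicate 3 among them, with permutation within groups. FOS and FOSB had Pearson's r of 0.845 (permutation p = 5e-05, adjusted 0.00126) and Spearman's rho of 0.897 (permutation p = 9e-05, adjusted 0.00126). ATF3 followed both, with r of 0.82 with FOS (permutation p = 0.00021, adjusted 0.00252) and rho of 0.885 (p = 0.00012, adjusted 0.00126). ATF3 and FOSB had r of 0.838 (permutation p = 0.00041, adjusted 0.00369) and rho of 0.885 (p = 0.00014, adjusted 0.00126). FOS, FOSB and ATF3 therefore rose and fell together between libraries given the same treatment. ATF3 was highest in replicate 3 of every group. FOSB was higher in replicates 3 and 4 than in 1 and 2 in every group with collagen. The permutation does not separate such splits by replicate number from any further relation.

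FOSL1 and JUN formed another pair, with r of 0.843 (permutation p = 7e-05, adjusted 0.00126) and rho of 0.876 (p = 1e-05, the smallest the permutations can give, adjusted 0.00036). Both genes were higher in replicates 3 and 4 than in 1 and 2 in every group, and the permutation, which treats libraries of a group as exchangeable, does not separate that shared split from any further relation. JUND and ATF3 had r of 0.733 (permutation p = 0.00363, adjusted 0.0261) and rho of 0.735 (p = 0.00443, adjusted 0.0319). Without the 2 libraries farthest from the median, r was 0.83 for FOS and FOSB, 0.732 for FOS and ATF3, 0.838 for FOSB and ATF3, 0.814 for FOSL1 and JUN and 0.714 for JUND and ATF3. The other 31 pairs had adjusted p-values of r above 0.05. The points of a pair come from the same libraries and share their depth and scaling.

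**Figure D3:**
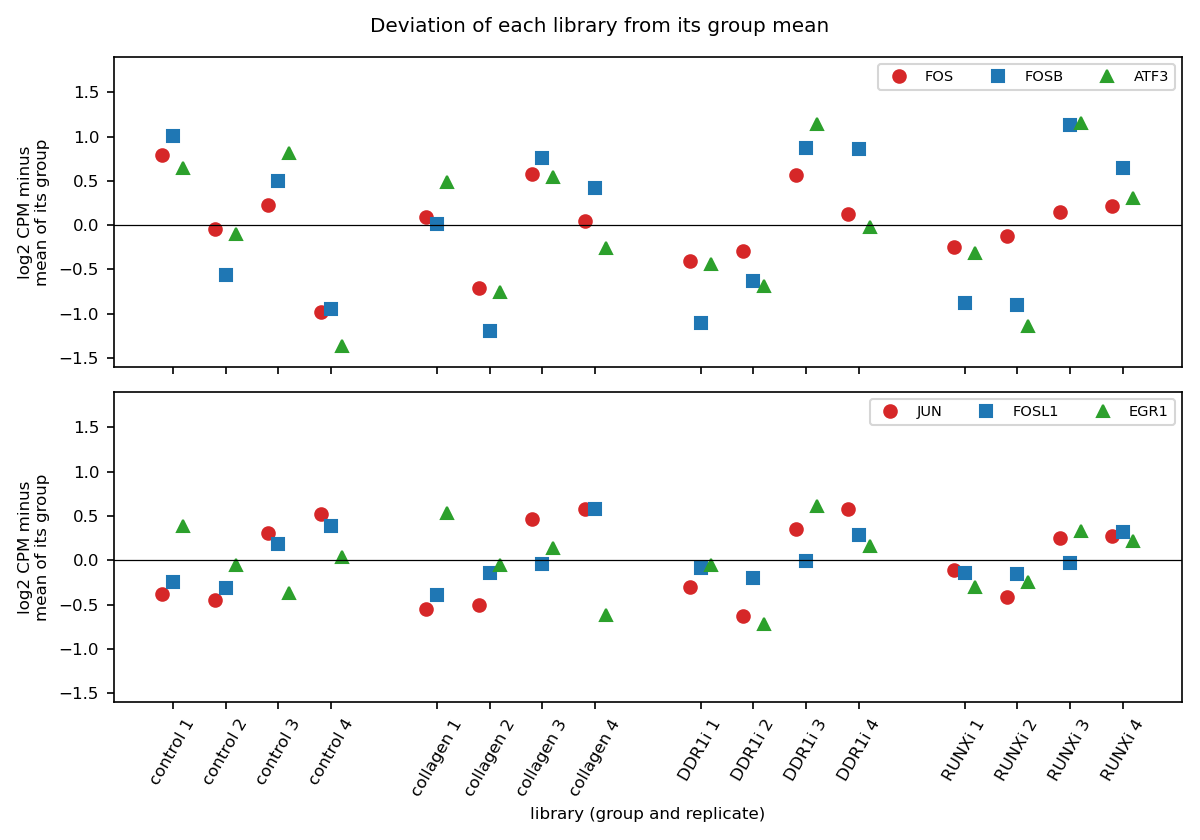
Deviation of log2 CPM from the group mean (vertical axis) in each of the 16 libraries (horizontal axis), for FOS, FOSB and ATF3 above and JUN, FOSL1 and EGR1 below. The points of FOS, FOSB and ATF3 move together (r of 0.82 to 0.845), as do those of JUN and FOSL1 (r of 0.843).

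Outside the set, the gene most like EGR1 over the 16 libraries was C15orf52 (Pearson's r of log2 CPM 0.845), followed by IER2, an immediate-early gene (0.838), and PLAUR, the urokinase receptor (0.837). FOSL1 was most like TUBB6 (0.893), EHD1 (0.89) and PLAU (0.883), the urokinase gene and a textbook AP-1 target. JUN was most like PEA15 (0.911), ANGPTL4 (0.898) and SPHK1 (0.87). FOSB was most like ENTHD2 (0.872), FAAH (0.849) and KLF6 (0.833), and FOS like FAAH (0.768), LOC284454 (0.767) and KCTD13 (0.758). ATF3 was most like PNPLA2 (0.839), WDR24 (0.825) and LOC284454 (0.815). JUND was most like BTG2 (0.892), PARP6 (0.8) and RHOF (0.777), JUNB like TMEM150A (0.806), EFNA1 (0.786) and ZFP36 (0.778), and FOSL2 like ARHGAP35 (0.947), MYO18A (0.941) and CREBBP (0.915). These correlations include differences between groups and are given as descriptions.

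Genes around the members were read from 5 lists. Of 18 other immediate-early genes, 14 or 15 could be tested. With DDR1i against the control, 4 of 14 were called higher and none lower, beside 0.151% and 0.0605% of all genes. The median log2 difference of the 14 was 0.37 (0.011 for all genes). The 4 called genes were IER2 (0.80, adjusted p = 0.00506, edgeR), IER3 (1.05, 0.0288), KLF10 (0.73, 0.0143) and ZFP36, an mRNA decay factor (0.84, 0.0399). IER2 kept its call without any single library. KLF10 lost it without control replicate 2 or DDR1i replicate 3 (adjusted p up to 0.0977), and IER3 without control replicate 1, 2 or 3 or DDR1i replicate 1, 3 or 4 (up to 0.181). ZFP36 kept it only without control replicate 1, DDR1i replicate 2 or RUNXi replicate 2 (otherwise up to 0.201). Without control replicates 2 and 3 together, IER2 kept its call (adjusted p = 0.0446) and the other three did not (0.202 to 0.635). With the length trend taken out, IER2 (0.0747), KLF10 (0.0788) and ZFP36 (0.0991) lost it. KLF10 (0.07) and ZFP36 (0.0892) also lost it with all 4 groups in the fit, and IER3 with no filter (0.148). KLF10 was also higher with DDR1i than with collagen (0.68, adjusted p = 0.0343), the 1 of 15 called there, beside 2.47% of all genes. That call was lost without collagen replicate 2 or 4 or DDR1i replicate 2, 3 or 4 (adjusted p up to 0.169). It was also lost with collagen replicate 3 included (0.379) and with the length trend taken out (0.063). IER2 was higher with DDR1i than with RUNXi (0.57, adjusted p = 0.0384), the 1 of 15 called there, beside 0.568% of all genes. This call was lost without any RUNXi library or DDR1i replicate 1, 3 or 4 (up to 0.243). It was also lost with collagen replicate 3 included (0.0753) and with the length trend taken out (0.0704).

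RUNXi had its clearest response elsewhere in this list, in NR4A1, an orphan nuclear receptor gene. It was at 7.69, 4.48, 7.35 and 4.13 CPM in the control, at 14.3, 10.3, 8.36 and 3.85 CPM with collagen, at 10.3, 8.41, 10.1 and 13.8 CPM with DDR1i and at 22.2, 16.5, 30.4 and 28.3 CPM with RUNXi. All RUNXi libraries were above every library of the other groups. The difference was 4.10-fold against the control (log2 2.03, adjusted p = 0.000409, kept in all 19 alternatives) and 2.57-fold against collagen (log2 1.36, adjusted p = 0.0239). The latter was lost without collagen replicate 4 (0.079), RUNXi replicate 3 (0.0698) or RUNXi replicate 4 (0.0588). With RUNXi, 1 of 15 genes of the list was called against collagen (4.05% of all genes) and 2 of 14 against the control (0.401%). KLF10 was the other gene of the list called with RUNXi against the control (0.60, adjusted p = 0.0483), a call kept in 1 of 12 fits without a library, that without control replicate 4, and otherwise with adjusted p up to 0.211. It was also lost with all 4 groups in the fit (0.146), with the length trend taken out (0.138) and without control replicates 2 and 3 together (0.489).

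Of 15 ERK feedback genes and EGR1 corepressors, 1 was called higher and 1 called lower in each comparison between inhibitor groups and collagen. Of all genes, 2.47% were called with DDR1i against collagen, 4.05% with RUNXi against collagen and 0.568% between the inhibitors. With DDR1i, DUSP1, the nuclear MAP kinase phosphatase and itself an immediate-early gene, fell by 0.77 on the log2 scale against collagen (adjusted p = 0.0028, kept in all 18 alternatives), with 268, 209.7, 264 and 220.02 CPM against 449, 364 and 416 in collagen replicates 1, 2 and 4. All DDR1i libraries were below all collagen libraries, the opposite order to EGR1. SPRY4, an inhibitor of receptor tyrosine kinase signalling, was higher than with collagen under both inhibitors, by 0.85 with DDR1i (adjusted p = 0.00428, and 0.062 with collagen replicate 3 included) and by 0.83 with RUNXi (adjusted p = 0.00325, kept in all 18 alternatives). Those comparisons share their collagen libraries. PHLDA1 was lower with RUNXi than with collagen (-0.55, adjusted p = 0.0189), a call lost without RUNXi replicate 2 (0.0588) or 3 (0.0629) with collagen replicate 3 included (0.22) and with all 4 groups in the fit (0.0905). Between the inhibitors, DUSP1 was lower (-0.55, adjusted p = 0.0235) and PHLDA1 higher (0.51, adjusted p = 0.0432) with DDR1i. The DUSP1 call was lost without DDR1i replicate 2 or 4 or RUNXi replicate 1, 2 or 4 (adjusted p up to 0.119), and that of PHLDA1 was kept in 3 of 11 fits without a library, those without collagen replicate 1 or 4 or RUNXi replicate 4 (otherwise up to 0.233). With all 4 groups in the fit both were lost (0.181 and 0.399), and PHLDA1 also with collagen replicate 3 included (0.155) and with the length trend taken out (0.0639). None of the 15 was called against the control.

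Of 20 textbook AP-1 targets, 16 to 18 could be tested. With DDR1i, 2 of 17 were called against the control (0.212% of all genes) and 1 of 18 against collagen (2.47%). Between the inhibitors 1 of 18 was called (0.568%), and with RUNXi against collagen 1 of 18 (4.05%). PLAU rose with DDR1i in all 3 comparisons of that group, by 1.53 against the control (fold 2.89, adjusted p = 0.000124, kept in all 19 alternatives), by 0.90 against collagen (adjusted p = 0.0129) and by 0.89 against RUNXi (adjusted p = 0.00819). Its DDR1i libraries were at 115, 113, 165 and 145 CPM, above the 38.8 to 94.6 CPM of all others. The collagen comparison was lost with collagen replicate 3 included (adjusted p = 0.062) and without DDR1i replicate 3 (0.0568), and that with RUNXi without RUNXi replicate 1 (0.0504) or 3 (0.0626). PLAUR was higher with DDR1i than in the control (0.74, adjusted p = 0.0163, lost without control replicate 1 or 2 or DDR1i replicate 3 or 4, with adjusted p up to 0.11). It was also lost with the length trend taken out (0.59, adjusted p = 0.26) and without control replicates 2 and 3 together (0.0899). ITGA2, the collagen-binding integrin α2 subunit, was higher with RUNXi than with collagen (0.76, adjusted p = 0.0368, lost without collagen replicate 4 or RUNXi replicate 1, 2 or 4, with adjusted p up to 0.128). It was also lost with collagen replicate 3 included (0.179) and with the length trend taken out (0.101). No other target was called in any comparison.

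Of 16 upstream kinases and SRF factors, 1 was called in any comparison. This was ELK3 with DDR1i against collagen (0.52, adjusted p = 0.0394), where 2.47% of all genes were called. The ELK3 call was lost without any of the 3 collagen libraries, DDR1i replicate 2, 3 or 4 or RUNXi replicate 2 (adjusted p up to 0.163). It was also lost with collagen replicate 3 included (0.395), with the length trend taken out (0.119) and with all 4 groups in the fit (0.0553). Of 12 further AP-1 and small bZIP partners, 9 or 10 were tested and 1 was called. This was MAFK with RUNXi against collagen (0.65, adjusted p = 0.0452), where 4.05% of all genes were called. The MAFK call was lost without any of the 3 collagen libraries, RUNXi replicate 1, 3 or 4 or DDR1i replicate 3 (up to 0.146). It was also lost with collagen replicate 3 included (0.253), with the length trend taken out (0.0887) and with all 4 groups in the fit (0.0751). In the comparison of collagen with the control, no gene of any list was called.

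**Figure D4:**
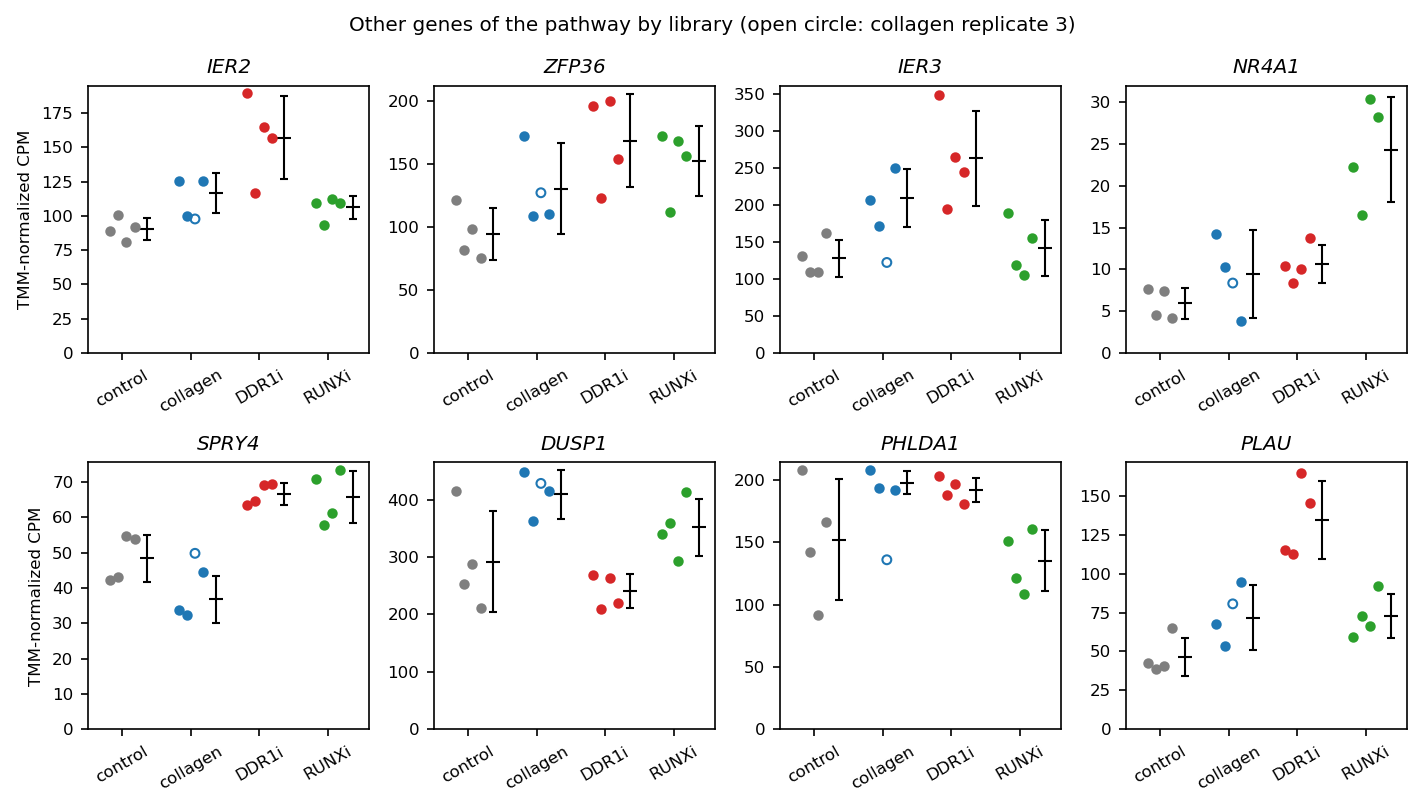
TMM-normalized CPM (vertical axes, linear from 0) of 8 genes from the lists in the 16 libraries by group, with the mean ± SD as bars and collagen replicate 3, not in the bars, as an open circle. NR4A1 is highest in the RUNXi group (16.5 to 30.4 CPM), PLAU in the DDR1i group (113 to 165 CPM), and DUSP1 is lower with DDR1i than with collagen.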

How the data were processed

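RNA-seq was carried out on MCF10A cells in 16 libraries, 4 per group, assigned from the deposited labels. Doses and times came from the study's methods. The authors aligned reads with STAR to hg19, per the submitters' processing notes, and deposited raw counts per gene without normalization. The counting tool, annotation and use of strand are not given in the sources used here, so counts of overlapping genes are uncertain. The table holds 26475 genes under 26473 names, of which 28 are calendar dates, and 21998 names matched the GENCODE annotation on GRCh37, 1322 of them by older symbols.

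The deposited counts went into edgeR 4.0.16 under R 4.3.3 (TMM scaling, the filterByExpr filter, quasi-likelihood with robust estimation). P-values were adjusted by Benjamini and Hochberg's method over all genes tested, with a threshold of 0.05. Collagen was compared with the control in 7 libraries, the inhibitors with collagen and with each other in 11, and the inhibitors with the control in 12. Collagen replicate 3, which the study removed, was left out of these comparisons. The SE was the log2 fold change divided by the square root of F, and intervals are 95%. Levels are TMM-normalized CPM with one scaling of 16 libraries, log2 values used a prior count of 2, and RPKM used the canonical transcript's length. Correlations used all 16 libraries and 100000 permutations. DESeq2 1.42.0 was an alternative, as were no filter, a replicate block, a length trend removed by a spline with 4 degrees of freedom, collagen replicate 3 included, 4 groups in the fit, and each library left out. Figures used Python 3.11.15, pandas 2.3.3 and matplotlib 3.10.9.

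Total counts ranged from 12184619 to 44332378, and precision is limited by the number of libraries. Replicates differed by more than sampling noise (lowest chi-square per degree of freedom 18.7 over 24 pairs). The fits were tested on simulated data. All 9 members were named whatever their values, with up to 6 called genes of each list per comparison and the 3 most similar genes per member. Members and lists were chosen with earlier results of these data known.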

Additional observations from a re-analysis of the deposited data

How the results depend on the processing

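Of the members' log2 differences under the alternatives, 872 kept their direction and their side of the threshold, 24 passed it newly, 17 were lost and 50 changed sign, none of them called in the first place. The cause of these changes was not tested. Against collagen, DDR1i called 1 member, beside 334 of all 13548 genes. It called 2 with DESeq2 (857 of 8535 genes), 2 with no filter (755 of 17911) and 3 with the replicate block (537 of 13548). With a library left out, 0 to 1 member was called, beside 60 to 662 genes. RUNXi against collagen called 0 (549 of 13548 genes), 1 with no filter, EGR1 (1046 of 17911), and 1 with the block, JUND (759 of 13548). DDR1i against RUNXi called 1 (77 of 13548 genes), and 2 with DESeq2 (134 of 14730) and 3 with no filter (163 of 17911). It called 2 with collagen replicate 3 included (67 of 13361), 0 with 4 groups in the fit (66 of 13731) and 3 with the block (154 of 13548). With a library left out, 0 to 1 member was called, beside 53 to 109 genes. DDR1i against the control called 2 (28 of 13213 genes), 3 with DESeq2 (65 of 13842), 3 with the block (116 of 13213) and 1 with 4 groups (17 of 13731). With a library left out it called 2 to 3, beside 8 to 47 genes. Without control replicates 2 and 3, an alternative chosen after seeing the data, it called 0 (12 of 13846). RUNXi against the control called 0 (53 of 13213 genes), 1 with DESeq2 (113 of 11004) and 2 with the block (162 of 13213). With a library left out it called 0 to 1, beside 26 to 78 genes. Collagen against the control called 0 (0 of 13092 genes), 1 with no filter, JUN (284 of 18059), and 0 with 4 groups in the fit (313 of 13731).

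Whether replicate numbers pair the libraries was not settled. Deviations of same-numbered libraries had correlations above 0.1 in 7 of 24 pairs (-0.0925 to 0.276). The mean r was 0.0784 for same-numbered pairs and -0.0234 for pairs with different numbers. Of the 16 libraries, 12 correlated best with their own number, a hint from the data and not the design. With the replicate block, EGR1 with DDR1i was 1.60 against collagen (adjusted p = 0.0159, edgeR), FOSL1 had 0.00165, and ATF3 was -0.98 (0.0116). JUN with the block passed for DDR1i against the control (1.17, 9.49e-06) and against RUNXi (0.60, 0.0109) and for RUNXi against the control (0.57, 0.0147), EGR1 for DDR1i against RUNXi (0.0356) and for RUNXi against the control (0.047), and JUND for RUNXi against collagen (-0.46, 0.0372). The block called 537, 759, 154, 116 and 162 genes in the 5 comparisons with an inhibitor.

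Signs changed as follows. With a length trend removed, FOS (0.067) and JUNB (0.021) for DDR1i against collagen, FOSL1 (0.0081), JUNB (0.034) and ATF3 (0.075) for RUNXi against collagen and JUNB (-0.013) for DDR1i against RUNXi. With collagen replicate 3 included, FOSB (-0.11) and JUNB (0.030) for DDR1i, and FOS (-0.11) and FOSB (-0.14) for RUNXi. With the block, FOSB (-0.29 for DDR1i, -0.36 for RUNXi). ATF3 for DDR1i against the control was 0.024 without control replicates 2 and 3.

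With a library left out, ranges crossed 0 for FOSL1 (-0.038 to 0.50) and ATF3 (-0.12 to 0.54) with collagen. For DDR1i against collagen they did so for FOS (-0.25 to 0.11), FOSB (-0.20 to 0.54), JUNB (-0.14 to 0.052) and JUND (-0.45 to 0.036). For RUNXi against collagen they were -0.12 to 0.24 (FOS), -0.31 to 0.52 (FOSB), -0.39 to 0.17 (FOSL1), -0.40 to 0.30 (JUN) and -0.54 to 0.32 (ATF3). For DDR1i against RUNXi they were -0.26 to 0.47 (FOSB), -0.19 to 0.021 (FOSL2), -0.044 to 0.21 (JUNB), -0.0055 to 0.30 (JUND) and -0.97 to 0.063 (ATF3). Against the control they were -0.75 to 0.056 (ATF3, DDR1i), -0.012 to 0.29 (JUND, RUNXi) and -0.27 to 0.49 (ATF3, RUNXi). At 12184619 counts or more, depth limits the members less than the number and spread of the libraries.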
